A study of Mus musculus with 8 samples.

Results

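The genes described here were 8 regulators and markers of mesenchyme: *Twist1*, *Twist2*, *Prrx1*, *Prrx2*, *Alx4*, *Crabp1*, *Corin* and *Prdm1*. They were chosen by name, as factors of dental and skin mesenchyme and as markers of the dermal condensate and dermal papilla, and were 8 of the 23358 genes of the expression table. All 8 were among the 14148 genes that reached at least 1 RPKM (reads scaled to the length of the gene and to the size of the library) in at least 2 of the 8 libraries and were tested.

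RNA-seq was performed on tissues dissected from the cervical loop of the mouse incisor, where the tooth grows, to ask how loss of *Med1* from dental epithelia changes gene expression there. The CLH tissue is its head, where the dental epithelial stem cells reside, and the CLT tissue is its tail, which holds their progenies. The mice were of the C57BL/6 strain and 4 weeks old. In *Med1* cKO mice, Cre recombinase driven by the *Krt14* promoter deletes exons 8 to 10 of floxed *Med1*, and littermates without Cre were the controls (Ctrl). The 4 groups were Ctrl CLH, cKO CLH, Ctrl CLT and cKO CLT, each with 2 libraries that the study's methods call biological duplicates. For the CLT libraries the study names 2 litters and CL tissues that were pooled within a group, 6 of them, so that a library is no single animal. The *Krt14* promoter is active in epithelial cells, whereas the Twist, Prrx and Alx factors are known from mesenchymal cells.

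Twist and Prrx proteins are transcription factors that mark mesenchyme, much of which is made by the neural crest in the face and jaws. A condensate of such mesenchymal cells lies under each tooth germ and under each hair placode, and exchanges signals with the epithelium above it. In the tooth it becomes the dental papilla, from which the odontoblasts arise, and in the hair follicle it becomes the dermal papilla.

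The recovered library totals lay between 26590000 reads (Ctrl CLT 2) and 34420000 reads (Ctrl CLH 1), and the lowest number of reads on any of the 8 genes in any library was 56 (*Twist2* in cKO CLT 2). The spread within a group is that between 2 libraries of pooled tissue, not between animals. The Ctrl CLT libraries stood apart from each other. Among genes with at least 1 RPKM in both libraries of a group, 36.4% differed by over 1.5-fold between Ctrl CLT 1 and Ctrl CLT 2, against 1.7% for the Ctrl CLH pair, 1.8% for the cKO CLH pair and 1.4% for the cKO CLT pair. Differences of the 8 genes that use the Ctrl CLT group are therefore given with and without each of its libraries. A fit with 1 library left in a group assumes that this library varies like the other group.

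The source label of the libraries names dental epithelial cells, and the tissues held both epithelial and mesenchymal transcripts. *Krt5*, a keratin of basal epithelium, lay between 268 and 1079 RPKM, and *Col1a1*, the collagen of connective tissue and bone, between 376 and 1865 RPKM. In bulk tissue, fewer cells of a type and less RNA per cell cannot be told apart.

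*Med1* was read first, as a check of the labels. Its level was 7.71 and 9.12 RPKM in the libraries labelled Ctrl CLH and 7.1 and 7.03 RPKM in those labelled cKO CLH. It was 4.83 and 8.71 RPKM in the libraries labelled Ctrl CLT and 9.15 and 8.96 RPKM in those labelled cKO CLT. The level was thus lower in the cKO libraries in CLH and higher in the cKO libraries in CLT, without overlap of the groups in either region. The difference was -0.22 (log2 fold change, SE 0.11, limma adjusted p = 0.71) in CLH and 0.42 (SE 0.30, adjusted p = 0.36) in CLT. Leaving out Ctrl CLT 1 gave 0.05 in CLT, and 0.79 was the value without Ctrl CLT 2 (adjusted p = 0.0039, past the threshold of 0.05), with adjusted p from 0.0039 to 0.79 over the fits that left out 1 library. Exons 8 to 10 hold 239 of the 8024 bases of the longest protein-coding transcript, or 3.0%, so that a value for the whole gene tells little about them. The groups are therefore those that the labels give, and cKO below means the libraries labelled cKO.

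*Twist1* (chr12:33957671-33959831 of mm10, plus strand, protein coding) encodes a basic helix-loop-helix factor of cranial mesenchyme. Its level was 15.1 and 16.3 RPKM in Ctrl CLH and 13.9 and 15.7 RPKM in cKO CLH. In CLT it was 4.99 and 11.4 RPKM in Ctrl and 4.25 and 3.76 RPKM in cKO. The CLH libraries of both genotypes were the highest and overlapped, and Ctrl CLT 1 lay much closer to the cKO CLT libraries than to Ctrl CLT 2. The cKO libraries of CLT were below both Ctrl libraries.

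*Twist1* differed between cKO and Ctrl in CLT by -0.79 (log2 fold change of RPKM + 1, SE 0.40), which did not pass the threshold of an adjusted p under 0.05 (adjusted p = 0.23). It was -1.31 without Ctrl CLT 1 (adjusted p = 0.00049, past the threshold) and -0.26 without Ctrl CLT 2 (adjusted p = 0.15), with adjusted p from 0.00049 to 0.68 over the fits that left out 1 library. In CLH the difference was -0.08 (SE 0.09, adjusted p = 0.81). Between regions, *Twist1* fell by 1.66 on the log2 scale from CLH to CLT in cKO (SE 0.11, adjusted p = 1.8e-06). In Ctrl the difference between regions was -0.95 (SE 0.40, adjusted p = 0.41), and -0.43 without Ctrl CLT 1 (adjusted p = 0.074) or -1.48 without Ctrl CLT 2 (adjusted p = 0.0081, past the threshold), with adjusted p from 0.0081 to 1 over the left-out fits.

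*Twist2* (chr1:91801477-91848027, plus strand, protein coding), the paralog of *Twist1*, is known from dermal fibroblasts. It measured 26.3 and 28.8 RPKM in Ctrl CLH and 26.3 and 29.4 RPKM in cKO CLH. The CLT libraries held 4.53 and 13.2 RPKM in Ctrl and 2.07 and 1.56 RPKM in cKO. All 4 CLT libraries were below all 4 CLH libraries, and the lowest values were those of cKO CLT. Both CLT groups were separate, with Ctrl CLT 1 between Ctrl CLT 2 and the cKO libraries.

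The difference of *Twist2* between cKO and Ctrl in CLT was -1.66 (SE 0.51, adjusted p = 0.11), a mean 4.88-fold lower in cKO. It was -2.34 without Ctrl CLT 1 (adjusted p = 0.00011) and -0.98 without Ctrl CLT 2 (adjusted p = 0.004), and these fits passed the threshold, with adjusted p up to 0.48 when a cKO CLT library was left out. CLH gave 0.01 (SE 0.08, adjusted p = 0.98). From CLH to CLT, *Twist2* fell by 3.36 in cKO (SE 0.12, adjusted p = 4.7e-08), a 15.3-fold lower mean level. In Ctrl that difference was -1.69 (SE 0.50, adjusted p = 0.35), and -2.37 without Ctrl CLT 2 (adjusted p = 0.0051) or -1.01 without Ctrl CLT 1 (adjusted p = 0.049), with adjusted p from 0.0051 to 1 over the left-out fits. An antisense gene, *Gm29100*, shares 1477 exonic bases with *Twist2*, and 689 of the 1329 bases (51.8%) of its shorter transcript, near the counted length of 1312 bases. Since the strand setting of the counting is not given in the sources used here, the reads of both cannot be told apart and the values of *Twist2* are uncertain to that extent.

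*Prrx1* (chr1:163245119-163313650, minus strand, protein coding) encodes a paired-related homeobox factor of limb and craniofacial mesenchyme. It stood at 12.8 and 13.9 RPKM in Ctrl CLH and at 11.9 and 11.7 RPKM in cKO CLH. Ctrl CLT 1 held 3.59 RPKM, Ctrl CLT 2 held 13.2 RPKM, and the cKO CLT libraries held 4.78 and 3.85 RPKM. The Ctrl CLT libraries lay on either side of the cKO CLT libraries: Ctrl CLT 1 had the lowest level of all 8 libraries and Ctrl CLT 2 was within the range of Ctrl CLH. *Prrx1* was the member with the widest gap between the Ctrl CLT libraries, 3.68-fold, and the one whose CLT groups overlapped.

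For *Prrx1*, the difference between cKO and Ctrl in CLT was -0.61 (SE 0.60, adjusted p = 0.49). Its direction depended on the Ctrl library: it was -1.43 without Ctrl CLT 1 (adjusted p = 0.00067) and 0.21 without Ctrl CLT 2 (adjusted p = 0.3), with adjusted p from 0.00067 to 0.85 over the left-out fits. The CLH libraries gave -0.16 (SE 0.08, adjusted p = 0.7). *Prrx1* fell by 1.28 from CLH to CLT in cKO (SE 0.11, adjusted p = 1.3e-05), a call that was lost when all 8 libraries shared 1 estimate of the spread (adjusted p = 0.063, the highest over the alternatives, of which the lowest was 3.2e-10). In Ctrl the same difference was -0.83 (SE 0.60, adjusted p = 0.55), which was -0.01 without Ctrl CLT 1 (adjusted p = 0.95) and -1.64 without Ctrl CLT 2 (adjusted p = 0.008, past the threshold), with adjusted p from 0.008 to 1 over the left-out fits.

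*Prrx2* (chr2:30845367-30881247, plus strand, protein coding), the paralog of *Prrx1*, was higher than *Prrx1* in every library outside cKO CLT. Its level was 41.1 and 41.6 RPKM in Ctrl CLH and 47.2 and 54.2 RPKM in cKO CLH. It was 13.2 and 27.7 RPKM in Ctrl CLT and 2.31 and 2.4 RPKM in cKO CLT. The groups of CLT were far apart, and the cKO CLT libraries lay close to each other. In CLH the cKO libraries were the higher ones, so that the order of the genotypes was opposite in CLH and CLT.

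The difference of *Prrx2* in CLT was -2.59 (SE 0.39, adjusted p = 0.062), with an 8.68-fold lower mean level in cKO. It was -3.10 without Ctrl CLT 1 (adjusted p = 2.2e-05) and -2.08 without Ctrl CLT 2 (adjusted p = 0.00032), both past the threshold, with adjusted p up to 0.44 when a cKO CLT library was left out. It was 0.28 in CLH (SE 0.08, adjusted p = 0.69). The difference between these effects, tested as an interaction of genotype and region over all 8 libraries, was -2.87 (SE 0.43, adjusted p = 0.013) and passed the threshold. It kept that call without Ctrl CLT 1 or Ctrl CLT 2 and lost it without any other library (adjusted p from 2.6e-07 to 0.078). *Prrx2* fell by 3.94 from CLH to CLT in cKO (SE 0.10, adjusted p = 7.6e-09), a 21.5-fold lower mean level. In Ctrl it was 2.02-fold lower in CLT than in CLH, a difference of -1.07 (SE 0.38, adjusted p = 0.38), which was -0.56 without Ctrl CLT 1 (adjusted p = 0.051) and -1.58 without Ctrl CLT 2 (adjusted p = 0.0048, past the threshold), with adjusted p from 0.0048 to 1 over the left-out fits.

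**Figure D1:**
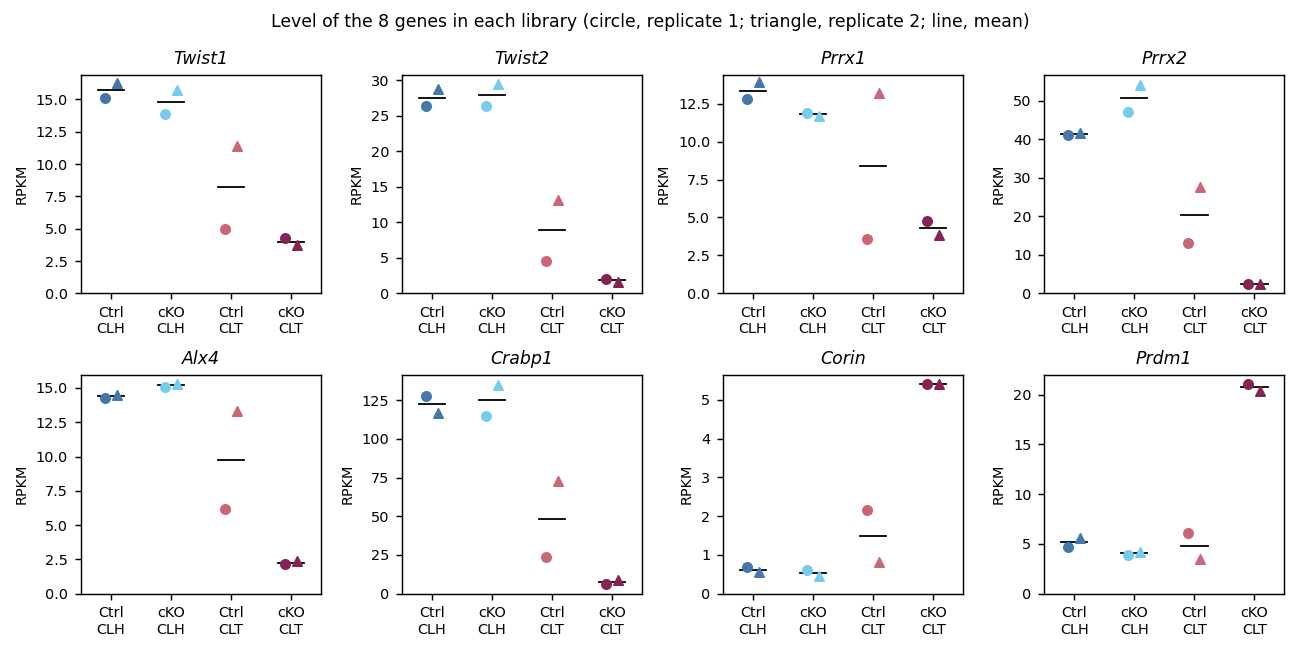
Level of each of the 8 genes in RPKM (y axis, linear, from 0) in each library, by group (x axis), with the mean of each group as a line. The 6 genes from *Twist1* to *Crabp1* were high in all CLH libraries and low in cKO CLT (*Prrx1* was lowest in Ctrl CLT 1), *Corin* and *Prdm1* were highest in cKO CLT, and the Ctrl CLT libraries differed by 1.74-fold (*Prdm1*) to 3.68-fold (*Prrx1*).

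*Alx4* (chr2:93642434-93681339, plus strand, protein coding) encodes an aristaless-like homeobox factor of limb and craniofacial mesenchyme. The level was 14.3 and 14.5 RPKM in Ctrl CLH and 15.1 and 15.3 RPKM in cKO CLH. Ctrl CLT held 6.17 and 13.3 RPKM and cKO CLT held 2.15 and 2.36 RPKM. Replicates agreed closely in the other 3 groups, and Ctrl CLT 2 lay near the CLH libraries. The cKO CLT libraries were the lowest, below Ctrl CLT 1.

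In CLT the difference of *Alx4* was -1.64 (SE 0.39, adjusted p = 0.083). It was -2.14 without Ctrl CLT 1 (adjusted p = 7.4e-05) and -1.14 without Ctrl CLT 2 (adjusted p = 0.0013), both past the threshold, and up to 0.46 in adjusted p without a cKO CLT library. CLH gave a difference of 0.07 (SE 0.06, adjusted p = 0.78). The interaction was -1.71 (SE 0.42, adjusted p = 0.042). That call was lost in 2 of the 5 alternatives that kept all libraries (adjusted p from 0.032 to 0.056 over the 5). It was also lost without any library outside Ctrl CLT, where the value lay between -1.76 and -1.66. *Alx4* fell by 2.31 from CLH to CLT in cKO (SE 0.10, adjusted p = 1.3e-07), and the same difference in Ctrl was -0.60 (SE 0.38, adjusted p = 0.51). In Ctrl it was -0.11 without Ctrl CLT 1 (adjusted p = 0.33) and -1.10 without Ctrl CLT 2 (adjusted p = 0.009, past the threshold), with adjusted p from 0.009 to 1 over the left-out fits. The oppositely oriented gene *Ext2* overlaps the *Alx4* locus without sharing an exonic base.

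*Crabp1* (chr9:54764808-54773109, plus strand, protein coding) encodes a cytosolic binding protein for retinoic acid and marks fibroblasts of the dermis and dermal papilla. It was the most abundant of the 8 genes in all libraries but those of cKO CLT, with 128 and 117 RPKM in Ctrl CLH and 115 and 135 RPKM in cKO CLH. It measured 23.8 and 72.9 RPKM in Ctrl CLT and 6.4 and 8.61 RPKM in cKO CLT. The CLH groups overlapped, and the CLT groups did not. The step from the lower Ctrl CLT library to the higher one was 3.06-fold.

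The CLT difference of *Crabp1* was -2.34 (SE 0.58, adjusted p = 0.089), with a 6.44-fold lower mean in cKO. It was -3.13 without Ctrl CLT 1 (adjusted p = 7.5e-05) and -1.56 without Ctrl CLT 2 (adjusted p = 0.0017), both past the threshold, with adjusted p up to 0.46 without a cKO CLT library. In CLH it was 0.02 (SE 0.10, adjusted p = 0.96). The interaction of -2.37 (SE 0.66, adjusted p = 0.056) missed the threshold, and passed it with median-of-ratios scaling (adjusted p = 0.047, the lowest over the alternatives that kept all libraries, of which the highest was 0.084). It passed as well without Ctrl CLT 1 (-3.16) and without Ctrl CLT 2 (-1.58), with adjusted p from 4.4e-06 to 0.18 over the left-out fits. *Crabp1* fell by 3.90 from CLH to CLT in cKO (SE 0.14, adjusted p = 4.5e-08), and its mean level was 16.7-fold lower. In Ctrl the difference was -1.53 (SE 0.57, adjusted p = 0.39), and -0.74 without Ctrl CLT 1 (adjusted p = 0.052) or -2.31 without Ctrl CLT 2 (adjusted p = 0.0049, past the threshold), with adjusted p from 0.0049 to 1 over the left-out fits.

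*Corin* (chr5:72300025-72504540, minus strand, protein coding) encodes a transmembrane serine protease that marks the dermal papilla of the hair follicle. Its level was 0.687 and 0.554 RPKM in Ctrl CLH and 0.618 and 0.45 RPKM in cKO CLH, from 67 to 119 reads. In CLT it was 2.17 and 0.807 RPKM in Ctrl and 5.4 RPKM in each cKO library. The cKO CLT libraries were the highest and Ctrl CLT 1 came next. The CLT groups did not overlap.

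*Corin* differed between cKO and Ctrl in CLT by 1.42 (SE 0.33, adjusted p = 0.083), with a 3.63-fold higher mean RPKM, and the log2 value understates the change of a gene this low. It was 1.82 without Ctrl CLT 1 (adjusted p = 9.7e-05) and 1.02 without Ctrl CLT 2 (adjusted p = 0.0017), both past the threshold, and adjusted p reached 0.46 without a cKO CLT library. CLH gave -0.08 (SE 0.08, adjusted p = 0.81). The interaction was 1.50 (SE 0.37, adjusted p = 0.043). That call held with median-of-ratios scaling (adjusted p = 0.049) and was lost in each of the 4 other alternatives that kept all libraries (adjusted p up to 0.081). It was also lost without any library outside Ctrl CLT, where the value lay between 1.42 and 1.58. *Corin* rose by 2.06 from CLH to CLT in cKO (SE 0.11, adjusted p = 4.8e-07), a 10.1-fold higher mean RPKM. In Ctrl the difference was 0.56 (SE 0.36, adjusted p = 0.52), and 0.16 without Ctrl CLT 1 (adjusted p = 0.26) or 0.97 without Ctrl CLT 2 (adjusted p = 0.012, past the threshold), with adjusted p from 0.012 to 1 over the left-out fits. The antisense gene *Gm20647* shares 147 exonic bases with *Corin*, whose values are uncertain to that extent.

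*Prdm1* (chr10:44437175-44458687, minus strand, protein coding) encodes the transcriptional repressor Blimp1. It is known from the dermal condensate, and also from keratinocytes, sebaceous cells and plasma cells, so that its RNA need not come from mesenchyme. *Prdm1* measured 4.68 and 5.63 RPKM in Ctrl CLH and 3.93 and 4.2 RPKM in cKO CLH. It measured 6.09 and 3.5 RPKM in Ctrl CLT and 21.1 and 20.4 RPKM in cKO CLT. The 6 other libraries lay between 3.5 and 6.09 RPKM, both from Ctrl CLT, and the cKO CLT libraries stood well above them.

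The CLT difference of *Prdm1* was 1.95 (SE 0.27, adjusted p = 0.061), with a 4.33-fold higher mean in cKO. It was 2.27 without Ctrl CLT 1 (adjusted p = 4.5e-05) and 1.62 without Ctrl CLT 2 (adjusted p = 0.00041), both past the threshold, with adjusted p up to 0.46 without a cKO CLT library. In CLH it was -0.28 (SE 0.12, adjusted p = 0.69), with the cKO libraries below the Ctrl libraries. The interaction was 2.22 (SE 0.32, adjusted p = 0.011). That call was lost without any library outside Ctrl CLT, where the value lay between 2.11 and 2.33. *Prdm1* rose by 2.10 from CLH to CLT in cKO (SE 0.09, adjusted p = 1.7e-07). In Ctrl the regions overlapped, and the difference of -0.12 (SE 0.29, adjusted p = 0.85) turned to 0.03 with median-of-ratios scaling and to 0.21 without Ctrl CLT 2, and was -0.45 without Ctrl CLT 1.

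Across the 8 genes, cKO and Ctrl in CLT differed with 6 lower and 2 higher values. The CLT groups did not overlap for 7 of 8 genes, against 72.2% of all genes tested. By limma, 0 of 8 passed the threshold, against 1.75% of all genes tested (248 of 14148), and 6 of 8 had an unadjusted p under 0.05, against 36.2% of all genes. A voom fit of the recovered reads also called 0 of 8, with 5 at an unadjusted p under 0.05. Without Ctrl CLT 1, 8 of 8 passed, together with 9838 of all genes, and without Ctrl CLT 2, 6 of 8 passed, together with 7369 of all genes. Without cKO CLT 1 or without cKO CLT 2, 0 of 8 passed, together with 11 genes in each fit. With all 8 libraries in 1 fit, 6 of 8 passed, together with 6183 of all genes.

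**Figure D2:**
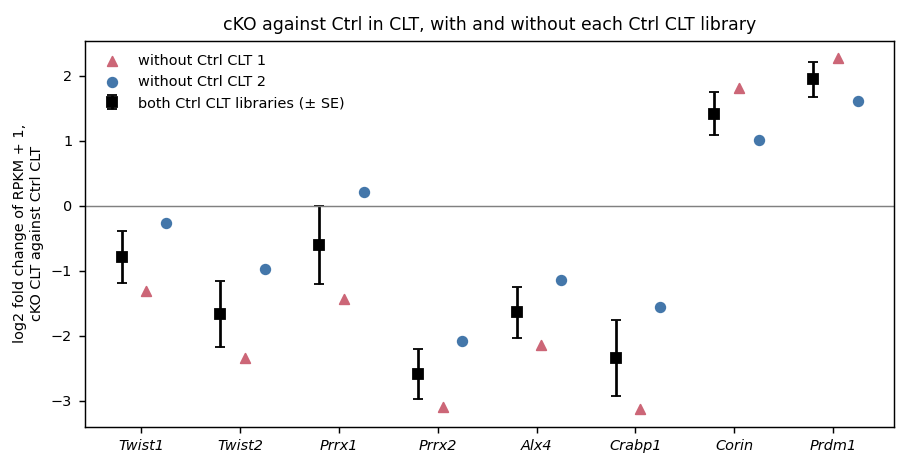
Difference between cKO and Ctrl in CLT for each of the 8 genes, as the log2 fold change of RPKM + 1 (y axis), with both Ctrl CLT libraries (squares, with the SE) and without Ctrl CLT 1 (triangles) or Ctrl CLT 2 (circles). *Prrx1* had -1.43 with Ctrl CLT 1 left out and 0.21 with Ctrl CLT 2 left out, and the other 7 genes kept their direction.

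In CLH, cKO and Ctrl did not overlap for 4 of 8 genes, against 38.7% of all genes tested. Of the 8 genes 0 passed the threshold by limma, against 0% of all genes, and 1 (*Prrx2*) had an unadjusted p under 0.05, against 7.26% of all genes. The voom fit called 0 of 8 as well, with 2 at an unadjusted p under 0.05. The values of the 8 genes thus lay between -0.28 (*Prdm1*) and 0.28 (*Prrx2*), and 0 of the 14148 genes tested passed the threshold in CLH.

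Between regions in cKO, all 8 genes passed the threshold, 6 of them lower in CLT, where 45.1% of all genes tested were called lower, and 2 higher, where 28.9% were called higher. Since 74.0% of all genes were called in that comparison, and since the libraries did not overlap for 86.7% of all genes and for 8 of 8 here, the count alone is no result about the 8 genes. Their sizes were from -3.94 (*Prrx2*) to 2.10 (*Prdm1*), beside a median of -0.18 over all genes tested. In Ctrl, the regions did not overlap for 6 of 8 genes, against 52.0% of all genes. By limma, 0 of 8 passed in Ctrl, against 0.00707% of all genes (1 gene), and 2 of 8 (*Twist2* and *Prrx2*) had an unadjusted p under 0.05, against 13.1%. The voom fit called 0 of 8 in Ctrl, with 3 at an unadjusted p under 0.05. Without Ctrl CLT 2, 7 of 8 passed in Ctrl (6 lower and *Corin* higher), together with 7537 of all genes, and without Ctrl CLT 1 it was *Twist2* that passed, together with 468 of all genes.

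Scaling bore on the comparison of regions. Median-of-ratios scaling moved the median of all genes by 0.147 in Ctrl and by 0.198 in cKO toward CLT, and the calls in cKO went from 4084 higher and 6384 lower to 5270 higher and 4884 lower. Relative to that shift, the differences of the 8 genes in cKO were from -3.75 (*Prrx2*) to 2.30 (*Prdm1*), and all 8 passed the threshold in the same direction.

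The interaction of genotype and region passed the threshold for 4 of 8 genes (*Prrx2* and *Alx4* negative, *Corin* and *Prdm1* positive), against 17.6% of all genes, with 9.58% called negative and 8.05% called positive. At an unadjusted p under 0.05 there were 6 of 8 genes, against 38.0% of all genes. *Twist2* (-1.67, SE 0.57, adjusted p = 0.088), *Twist1* (-0.70, SE 0.45, adjusted p = 0.29) and *Prrx1* (-0.45, SE 0.68, adjusted p = 0.65) did not pass. Without Ctrl CLT 1 the count was 8 of 8 (and 8932 of all genes), without Ctrl CLT 2 it was 6 of 8 (and 6599), and without any of the other 6 libraries it was 0 of 8, with 198 to 282 of all genes. These comparisons share libraries, the Ctrl CLT libraries among them, and are not independent of each other.

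The order of the 8 genes by level, which RPKM gives per length, was the same in both Ctrl CLH libraries: *Crabp1*, *Prrx2*, *Twist2*, *Twist1*, *Alx4*, *Prrx1*, *Prdm1* and *Corin*. In cKO CLH the order was the same but for *Twist1* and *Alx4*, whose libraries overlapped. In both cKO CLT libraries the order was *Prdm1*, *Crabp1*, *Corin*, *Prrx1*, *Twist1*, *Prrx2*, *Alx4* and *Twist2*, in which *Prrx1* overlapped *Twist1* and *Prrx2* overlapped *Alx4*. Thus *Prdm1* and *Corin*, the lowest of the 8 in CLH, were among the highest in cKO CLT. *Prdm1* was above 59.2% of all genes of the table in Ctrl CLH 1 and above 85.7% in cKO CLT 1. *Crabp1* was above 98.4% in Ctrl CLH 1 and above 65.6% in cKO CLT 1.

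As a share of the mean level in Ctrl CLH, the cKO CLT libraries kept 27% and 23.9% of *Twist1* and 35.8% and 28.9% of *Prrx1*. They kept 7.5% and 5.68% of *Twist2*, and 5.58% and 5.81% of *Prrx2*. The second member of each pair of paralogs was thus the lower one in cKO CLT on this scale. *Alx4* kept 14.9% and 16.4%, and *Crabp1* 5.22% and 7.02%.

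The ratio of the paralogs within a library, which does not depend on how libraries are scaled, showed the same. The ratio of *Twist2* to *Twist1*, both per length, was 1.74 and 1.77 in Ctrl CLH, and in cKO CLH it was 1.9 and 1.87. The Ctrl CLT libraries gave 0.908 and 1.16, and the cKO CLT libraries gave 0.487 and 0.417. *Twist2* was thus the more abundant paralog in all CLH libraries and the less abundant one in both cKO CLT libraries, with the Ctrl CLT libraries between. The ratio of *Prrx2* to *Prrx1* was 3.22 and 2.99 in Ctrl CLH, and in cKO CLH it was 3.95 and 4.63. The Ctrl CLT libraries gave 3.67 and 2.09, and the cKO CLT libraries gave 0.482 and 0.623. *Prrx2* was the more abundant paralog in all 6 libraries outside cKO CLT, with Ctrl CLT 1 inside the CLH range. These ratios were taken after the levels were seen and are a description. With 2 libraries in each group, the smallest p of an exact two-sided permutation test would be 0.333.

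**Figure D3:**
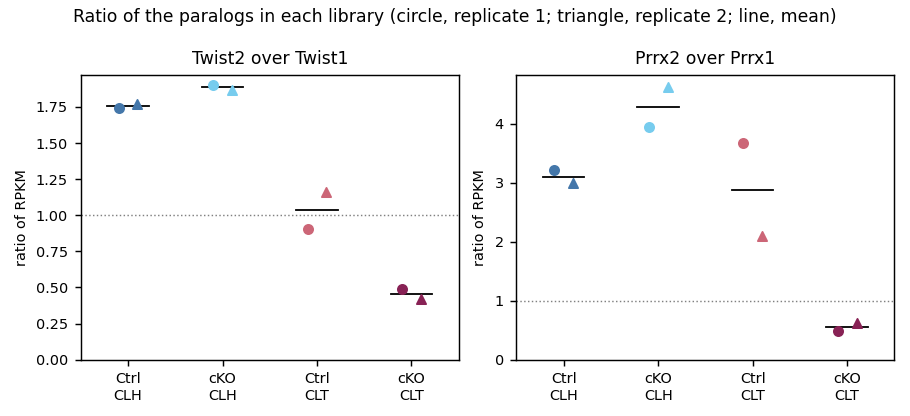
Ratio of the RPKM of *Twist2* to *Twist1* (left) and of *Prrx2* to *Prrx1* (right) in each library (y axis, linear, from 0), by group (x axis), with the mean as a line and a dotted line at a ratio of 1. Both ratios were below 1 in both cKO CLT libraries and above 1 in all CLH libraries.

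For each of the 8 genes, the 3 genes with the most similar pattern over the 8 libraries were taken by Pearson's r of log2(RPKM + 1), as a description. The nearest to *Twist1* was *Nid1* (r = 0.998), a basement membrane gene, with 29.9 and 59.9 RPKM in Ctrl CLT and 24.9 and 24.2 RPKM in cKO CLT. *Parva* (r = 0.997) was close to *Twist1* too. *Twist2* was nearest to *Eif2ak3*, *Limd2* and *Igdcc4* (r = 0.998 for each), and *Prrx1* to *Tex9* (r = 0.998), *9430020K01Rik* and *Abca9*. The genes most like *Prrx2* were *Plekha5*, *Rcn3* and *Emilin1*, an extracellular matrix gene with 19.4 and 40.4 RPKM in Ctrl CLT and 2.7 and 3.21 RPKM in cKO CLT. *Alx4* was closest to *Nfatc4*, *Tro* and *Anxa5*, and *Crabp1* to *Samd14*, *Dact3* and *Rnft2*. *Corin* was closest to *Smtnl1*, *Cntnap1* and *5430411K18Rik*, and *Prdm1* to *Sectm1b*, *Ezh1* and *Synpo2*. *Smtnl1*, a gene known from skeletal muscle, had 2.1 and 0.448 RPKM in Ctrl CLT and 6.34 and 6.87 RPKM in cKO CLT.

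Lists of related genes were read beside the 8 genes by counts and medians. Of 16 partners, inhibitors and relatives of Twist, 13 were tested, and 0 of these passed the threshold in CLT by limma, with 7 at an unadjusted p under 0.05, and the median difference was -0.91, beside -0.01 over all genes tested. The difference was negative for 11 of the 13 and positive for 2. *Hand2*, a helix-loop-helix factor of jaw mesenchyme, had 10.8 and 29.3 RPKM in Ctrl CLT and 0 and 0.0164 RPKM in cKO CLT, where a count of 0 allows up to 3 reads. *Snai1*, a repressor of epithelial genes, had 6.01 and 18.7 RPKM in Ctrl CLT and 1.33 and 1.66 RPKM in cKO CLT. *Id3*, an inhibitor of helix-loop-helix factors and the most abundant gene of the list, had 136 and 150 RPKM in Ctrl CLT and 57.4 and 65.9 RPKM in cKO CLT. *Tcf3*, a partner of Twist, went the other way, with 14 and 14.9 RPKM in Ctrl CLT and 20.4 and 23.1 RPKM in cKO CLT. *Tcf21* had no read in any library. Leaving out Ctrl CLT 1 gave a median of -1.18, and leaving out Ctrl CLT 2 gave -0.30.

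Among 10 tested relatives of Prrx and Alx, 1 passed in CLT (*Pitx1*, lower in cKO), 6 had an unadjusted p under 0.05, and the median was -0.97. *Alx1*, an aristaless-like homeobox gene as *Alx4* is, had 7.03 and 24 RPKM in Ctrl CLT and 0.258 and 0.221 RPKM in cKO CLT. *Alx1* was thus nearer to 0 in cKO CLT than *Alx4* was. *Meox2*, a factor of muscle precursors and connective tissue, went the other way, with 1.14 and 0.0641 RPKM in Ctrl CLT and 3.17 and 3.23 RPKM in cKO CLT. Without Ctrl CLT 1 the median of this list was -1.54, and without Ctrl CLT 2 it was -0.49.

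Of 16 tested genes of retinoic acid binding, synthesis, breakdown and reception, the context of *Crabp1*, 0 passed in CLT by limma, 7 had an unadjusted p under 0.05, and the median was -0.31 (-0.36 with Ctrl CLT 1 left out, -0.09 with Ctrl CLT 2 left out). *Cyp26a1*, which breaks down retinoic acid, had 10.1 and 35.1 RPKM in Ctrl CLT and 0.421 and 0.391 RPKM in cKO CLT. *Stra6*, a receptor for retinol binding protein, had 11.7 and 2.57 RPKM in Ctrl CLT and 34 and 39.5 RPKM in cKO CLT. *Rarg*, the most abundant gene of the list over all libraries, had 41.7 and 55 RPKM in Ctrl CLT and 50 and 56.3 RPKM in cKO CLT. In Ctrl CLH *Cyp26a1* was higher, with 64.2 and 81.2 RPKM against 56 and 54.9 RPKM of *Rarg*. Of 10 tested relatives of *Prdm1*, 1 passed in CLT (*Prdm6*, from 7.02 and 5.48 RPKM in Ctrl to 0.0411 and 0.0282 RPKM in cKO), and the median was 0.29 (0.30 with Ctrl CLT 1 left out, 0.28 with Ctrl CLT 2 left out). Among the 10, 6 differences were positive, as that of *Prdm1* was, and 4 were negative. *Prdm4*, the most abundant of the list over all libraries, had 9.69 and 8.53 RPKM in Ctrl CLT and 14.3 and 14.5 RPKM in cKO CLT. *Prdm12* had no read in any library.

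Of 21 tested markers of the dermal papilla other than the 8 genes, 5 passed the threshold in CLT, all lower in cKO (*Alpl*, *Wif1*, *Enpp2*, *Scube3* and *Dkk2*), against 1.75% of all genes tested, and the median was -0.87 (-1.08 with Ctrl CLT 1 left out, -0.45 with Ctrl CLT 2 left out). The fit without Ctrl CLT 1 called 16 of the 21 lower and 2 higher, beside 5393 lower and 4445 higher of the 14148 genes. The fit without Ctrl CLT 2 called 11 lower and 4 higher, beside 3248 lower and 4121 higher. Their summed level was 829 and 799 RPKM (Ctrl) and 864 and 839 RPKM (cKO) in the CLH libraries, against 668 and 989 RPKM (Ctrl) and 88.2 and 87.5 RPKM (cKO) in the CLT libraries. The most abundant gene over all libraries was *Alpl*, a phosphatase that odontoblasts and bone cells express too. *Alpl* is counted again in the list of odontoblast and bone markers below, so that the 2 lists are not separate. It had 264 and 369 RPKM in Ctrl CLT and 1.94 and 1.97 RPKM in cKO CLT. In cKO CLT *Enpp2* (16 and 14.2 RPKM) and *Wif1* (14.6 and 14.3 RPKM) were higher than *Alpl*. *Rspo3*, a Wnt agonist of the dermal papilla, had 0.699 and 0.706 RPKM in Ctrl CLT and 2.04 and 1.55 RPKM in cKO CLT.

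Of 18 general mesenchyme genes tested, 1 passed in CLT by limma (*Cdh2*, lower in cKO). At an unadjusted p under 0.05 there were 10 of 18, against 36.2% of all genes tested. The difference was negative for 15 of the 18 and positive for 3, and the median was -0.69 (-1.23 with Ctrl CLT 1 left out, -0.32 with Ctrl CLT 2 left out). Their summed level was 6121 and 5802 RPKM (Ctrl) and 6579 and 6608 RPKM (cKO) in the CLH libraries, against 4475 and 6165 RPKM (Ctrl) and 3580 and 3834 RPKM (cKO) in the CLT libraries. *Col1a1* was the most abundant over all libraries, with 1067 and 1335 RPKM in Ctrl CLT and 376 and 472 RPKM in cKO CLT. *Col3a1*, another fibrillar collagen, had 527 and 456 RPKM in Ctrl CLT. In cKO CLT *Col3a1* was above *Col1a1*, with 874 and 979 RPKM. Transcripts of connective tissue were thus present in cKO CLT, at a high level for both collagens.

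Of 13 tested genes of dental mesenchyme, 1 passed in CLT by limma (*Dlx2*, lower in cKO). At an unadjusted p under 0.05 there were 9 of 13, against 36.2% of all genes tested. The difference was negative for 12 of the 13 and positive for 1, and the median was -1.15 (-1.48 with Ctrl CLT 1 left out, -0.75 with Ctrl CLT 2 left out). The summed level was 558 and 617 RPKM (Ctrl) and 484 and 585 RPKM (cKO) in the CLH libraries, against 202 and 334 RPKM (Ctrl) and 169 and 179 RPKM (cKO) in the CLT libraries, with *Acta2* the most abundant gene. *Lhx8* had 3.84 and 18.1 RPKM in Ctrl CLT and 0 and 0.111 RPKM in cKO CLT, and *Pax9* had 1.01 and 4.89 RPKM in Ctrl CLT and 0.0139 and 0 RPKM in cKO CLT. *Lhx8* and *Pax9* were thus at or near 0 in cKO CLT, where *Twist1* and *Prrx1* were not. Other genes of the list were not near 0 there. *Dlx2* had 19.6 and 20.4 RPKM in Ctrl CLT and 7.11 and 6.97 RPKM in cKO CLT. *Acta2*, an actin gene and no factor particular to dental mesenchyme, had 73.2 and 96.4 RPKM in Ctrl CLT and 84.8 and 92.5 RPKM in cKO CLT. It thus held much of the summed 169 and 179 RPKM of the list in cKO CLT. Of 7 tested markers of odontoblasts and bone, 6 passed in CLT, all lower in cKO, and the median was -5.40 (-6.26 with Ctrl CLT 1 left out, -4.63 with Ctrl CLT 2 left out). *Alpl*, which is in the dermal papilla list too, was among the 6. Their summed level was 1450 and 1205 RPKM (Ctrl) and 1539 and 1493 RPKM (cKO) in the CLH libraries, against 1379 and 1597 RPKM (Ctrl) and 3.37 and 3.09 RPKM (cKO) in the CLT libraries, with *Dspp* the most abundant. The part of these cell types in the levels of the 8 genes was not tested.

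Markers of epithelium, skin and muscle were higher in sum in cKO CLT, as *Corin* and *Prdm1* were. Epithelial markers summed to 824 and 812 RPKM (Ctrl) and 863 and 951 RPKM (cKO) in the CLH libraries. In the CLT libraries they summed to 2174 and 1093 RPKM (Ctrl) and 3405 and 3825 RPKM (cKO). *Krt5* was the most abundant over all libraries. In cKO CLT *Krt17* was higher, with 946 and 1113 RPKM against 936 and 1079 RPKM of *Krt5*. Hair shaft and inner root sheath markers summed to 235 and 237 RPKM (Ctrl) and 246 and 240 RPKM (cKO) in the CLH libraries. In the CLT libraries they summed to 3348 and 221 RPKM (Ctrl) and 9327 and 10221 RPKM (cKO), with *Krt71* the most abundant over all libraries. *Dlx3* and *Msx2* made up most of the sum in the CLH libraries and in Ctrl CLT 2. In Ctrl CLH, *Dlx3* had 137 and 135 RPKM, *Msx2* 91.4 and 95.9 RPKM, and *Krt71* 0.575 and 0.428 RPKM. The median difference of this list was 4.93 (8.30 with Ctrl CLT 1 left out, 1.57 with Ctrl CLT 2 left out). With both Ctrl CLT libraries 0 of 10 passed the threshold by limma (0 at an unadjusted p under 0.05), against 1.75% of all genes tested. The difference was positive for 9 of the 10 and negative for 1. Ctrl CLT 1 held 1229 RPKM of *Krt71* and Ctrl CLT 2 held 1.3 RPKM. Cornified epidermis markers summed to 7.88 to 23.3 RPKM in CLH, against 509 and 6.2 RPKM (Ctrl) and 1418 and 1480 RPKM (cKO) in the CLT libraries, with *Krt10* the most abundant. Their median was 4.17 (6.76 with Ctrl CLT 1 left out, 1.50 with Ctrl CLT 2 left out). With all libraries 0 of 7 passed the threshold (0 at an unadjusted p under 0.05), and 7 of 7 differences were positive. Skeletal muscle markers summed to 18.9 to 23.8 RPKM in CLH, against 478 and 31.8 RPKM (Ctrl) and 1318 and 1521 RPKM (cKO) in the CLT libraries, with *Acta1* the most abundant. Their median was 3.09 (4.57 with Ctrl CLT 1 left out, 1.54 with Ctrl CLT 2 left out). With all libraries 0 of 9 passed the threshold (4 at an unadjusted p under 0.05), and 9 of 9 differences were positive. Melanocyte markers summed to 4.26 to 4.58 RPKM in CLH, 134 and 10.3 RPKM in Ctrl CLT, and 414 in each cKO CLT library, with *Dct* the most abundant. Their median was 3.15 (4.72 with Ctrl CLT 1 left out, 1.58 with Ctrl CLT 2 left out). With all libraries 0 of 6 passed the threshold (4 at an unadjusted p under 0.05), and 6 of 6 differences were positive. The Ctrl CLT libraries lay far apart in the hair, cornified, muscle and melanocyte lists. The counts past the threshold therefore do not tell whether these lists differed between cKO and Ctrl.

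In each of these 5 lists Ctrl CLT 1 lay between Ctrl CLT 2 and the cKO CLT libraries, as it did for *Twist1*, *Twist2*, *Prrx2*, *Alx4*, *Crabp1*, *Corin* and *Prdm1*. Ameloblast markers did not follow that order: they summed to 12503 to 14318 RPKM in CLH, against 84584 and 37392 RPKM (Ctrl) and 19.7 and 15.8 RPKM (cKO) in the CLT libraries, with *Amelx* the most abundant, and 7 of 7 passed in CLT, all lower in cKO, with a median of -9.46 (-9.20 with Ctrl CLT 1 left out, -8.98 with Ctrl CLT 2 left out). Schwann and neural markers summed to 58.4 to 73.2 RPKM in CLH, against 40 and 38.3 RPKM (Ctrl) and 100 and 104 RPKM (cKO) in the CLT libraries. Endothelial markers summed to 121 to 132 RPKM in CLH, against 93.7 and 136 RPKM (Ctrl) and 83.8 and 84.9 RPKM (cKO) in the CLT libraries. Perivascular markers summed to 173 to 237 RPKM in CLH, against 113 and 165 RPKM (Ctrl) and 109 and 113 RPKM (cKO) in the CLT libraries. Leukocyte markers summed to 181 to 205 RPKM in CLH, against 185 and 206 RPKM (Ctrl) and 180 and 189 RPKM (cKO) in the CLT libraries. Of these last 3 lists, 0 of 8, 0 of 6 and 0 of 7 tested genes passed in CLT by limma, with 3 at an unadjusted p under 0.05 in each. Their medians were -0.09 (-0.30 with Ctrl CLT 1 left out, 0.00 with Ctrl CLT 2 left out), -0.25 (-0.43 with Ctrl CLT 1 left out, -0.07 with Ctrl CLT 2 left out) and -0.56 (-0.76 with Ctrl CLT 1 left out, -0.30 with Ctrl CLT 2 left out). Counts of calls in CLT for the epithelial and the Schwann and neural lists are not given here. The part of these cell types in the levels of the 8 genes was not tested.

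**Figure D4:**
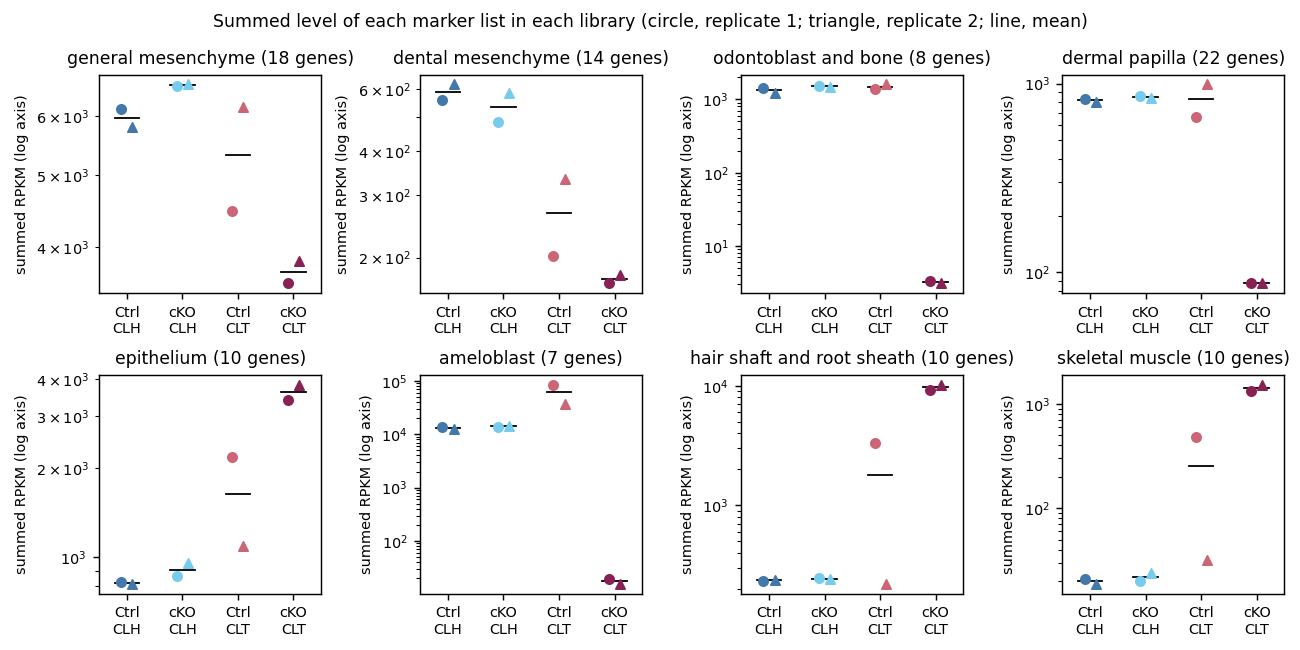
Summed RPKM of 8 marker lists (y axis, log scale) in each library, by group (x axis), with the mean as a line. Odontoblast and bone markers summed to 3.37 and 3.09 RPKM in cKO CLT, hair shaft and root sheath markers to 9327 and 10221 RPKM, and Ctrl CLT 1 lay above Ctrl CLT 2 for epithelial, hair and muscle markers.

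Promoter sequences were read for 7 of the 8 genes, those with an entry in the RefSeq promoter table (GRCm38.p6, the build mm10), since 5 of these 7 genes fell and *Corin* and *Prdm1* rose from CLH to CLT in cKO. Each window holds 300 bases around the start in that table, written in the direction of the gene. The windows of *Prdm1* and *Crabp1* lie just outside the loci of the expression table, whose starts differ from those of the promoter table. The motifs searched on both strands were the E-box CANNTG, the core site of Twist and other helix-loop-helix factors, its form CATCTG, the homeodomain core TAATTA and the TATA box TATAAA. Of all 32851 windows of that length, 72.3% held CANNTG, 17.2% CATCTG, 5.29% TAATTA and 13.6% TATAAA.

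No motif of the 4 was found in the windows of *Twist2*, *Prrx2* and *Crabp1*. The other 4 windows are shown with their matches in capitals: TATAAA in *Twist1* (chr12:33957421-33957720, plus strand), TAATTA in *Prrx1* (chr1:163313601-163313900, minus strand), CATCTG in *Corin* (chr5:72504491-72504790, minus strand), and CATTTG and CAGGTG, 2 E-boxes, in *Prdm1* (chr10:44458699-44458998, minus strand). A match is a description of the letters and not a bound site.
Twist1: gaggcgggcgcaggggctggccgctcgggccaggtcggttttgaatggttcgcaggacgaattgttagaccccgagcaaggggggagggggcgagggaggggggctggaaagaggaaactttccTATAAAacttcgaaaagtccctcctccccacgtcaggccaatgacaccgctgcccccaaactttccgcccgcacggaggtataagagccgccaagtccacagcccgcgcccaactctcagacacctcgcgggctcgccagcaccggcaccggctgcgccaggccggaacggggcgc
Prrx1: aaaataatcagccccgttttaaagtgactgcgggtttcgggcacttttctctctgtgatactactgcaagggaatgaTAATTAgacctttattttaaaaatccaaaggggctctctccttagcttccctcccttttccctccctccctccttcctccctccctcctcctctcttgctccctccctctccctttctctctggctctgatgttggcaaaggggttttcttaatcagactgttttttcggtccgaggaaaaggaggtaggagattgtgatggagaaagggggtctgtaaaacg
Corin: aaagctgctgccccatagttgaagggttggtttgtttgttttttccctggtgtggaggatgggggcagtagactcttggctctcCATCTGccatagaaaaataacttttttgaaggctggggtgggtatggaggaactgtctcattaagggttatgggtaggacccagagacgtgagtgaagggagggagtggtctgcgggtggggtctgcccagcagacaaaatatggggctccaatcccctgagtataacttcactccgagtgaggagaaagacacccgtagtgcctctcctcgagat
Prdm1: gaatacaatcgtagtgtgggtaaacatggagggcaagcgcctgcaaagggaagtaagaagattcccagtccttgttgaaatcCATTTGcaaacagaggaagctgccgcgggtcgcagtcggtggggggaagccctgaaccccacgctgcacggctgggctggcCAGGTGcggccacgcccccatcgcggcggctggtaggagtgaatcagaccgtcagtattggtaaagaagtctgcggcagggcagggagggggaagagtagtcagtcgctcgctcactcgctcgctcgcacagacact
An absent match says only that these letters are not in the window. The GC content was 51.7% for *Corin*, 59.7% for *Prdm1*, 47.7% for *Prrx1* and 66.0% for *Twist1*, beside a median of 52.7% over all windows.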

How the data were processed

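Each of the 4 groups, taken from the sample labels, has 2 RNA-seq libraries. The authors mapped reads to mm10 and deposited RPKM values for 23358 genes. The submitters' processing notes name FastQC 0.72, Trim Galore 0.4.3.1, STAR 2.6.0b-1, featureCounts 1.6.3 and DESeq2 2.11.40.2. The 26 gene names held by more than 1 entry (69 entries) were not used by name.

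RPKM times gene length gave whole reads, within 0.1, for 100.0% of the values checked. A count of 0 allows up to 3 reads, which covers counting error only. limma 3.58.1 (variance trend, R 4.3.3) tested log2(RPKM + 1) over 14148 genes with at least 1 RPKM in at least 2 libraries. The p-values were adjusted by Benjamini and Hochberg's method over these genes, at a threshold of 0.05. Each comparison used its own 4 libraries, and the interaction all 8. The main fits were tested on simulated data with the same spread in every group. That test therefore does not cover the wider spread of Ctrl CLT, nor the fits that left out a library. Tables and figures were made with Python 3.11.15 (pandas 2.3.3, matplotlib 3.10.9).

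The 8 genes and the lists were chosen with earlier results of these data known. Genes named were *Med1*, the 8 genes, from each list the extremes in CLT, the most abundant gene and those past the threshold, and for each of the 8 genes the 3 most similar genes of over 200 bases. Strands and overlaps are from GENCODE M21. *Drgx*, *Flg*, *Jchain* and *Mzb1* of the lists were not analysed here. The alternatives were a pseudocount of 0.1, no filter on low values, median-of-ratios scaling, all 8 libraries in 1 fit, the replicate number as a block, voom on recovered reads, and leaving out each library in turn.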

Additional observations from a re-analysis of the deposited data

Results flagged for a closer look

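The effect of cKO differed between CLT and CLH for 4 of the 8 genes, against 17.6% of all genes tested, by the interaction test over all 8 libraries (limma, log2 fold change in CLT minus that in CLH). The difference was -2.87 for *Prrx2* (adjusted p = 0.013), -1.71 for *Alx4* (adjusted p = 0.042), 1.50 for *Corin* (adjusted p = 0.043) and 2.22 for *Prdm1* (adjusted p = 0.011). For each of these 4 genes, both cKO CLT libraries lay on the same side of both Ctrl CLT libraries, as for 72.2% of all genes tested. Without Ctrl CLT 1 the test called 8 of 8 genes and 8932 of the 14148 tested, and without Ctrl CLT 2 it called 6 of 8 and 6599 of the 14148. Without any of the other 6 libraries it called 0 of 8, with 5 or 6 at an unadjusted p under 0.05, and 198 to 282 of all genes. Over the alternatives that kept all libraries it called from 2 to 5 of 8, with 2 under no filter on low values, 3 under a pseudocount of 0.1, 3 by voom and 5 under median-of-ratios scaling, and *Corin* was called in 1 of the 5 alternatives.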

How the results depend on the processing

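Of the differences of the 8 genes under an alternative, 346 kept their direction and their side of the threshold, 39 passed it newly, 31 no longer passed it and 8 turned in direction. The cause was not tested. A fit without 1 library assumes that the library left in its group varies like the others.

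Between cKO and Ctrl in CLT, 248 genes and 0 of the 8 passed by limma (6 of the 8 at an unadjusted p under 0.05). The count of genes was 3 with no filter on low values, where more genes were tested, 6183 with all 8 libraries in 1 fit, 18 with voom, and from 11 to 9838 without 1 library. The count among the 8 genes was 6 with all 8 libraries in 1 fit, 0 with voom, and from 0 to 8 without 1 library. *Prrx1* went from -1.43 without Ctrl CLT 1 to 0.21 without Ctrl CLT 2.

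Between cKO and Ctrl in CLH, 0 genes passed by limma under each alternative and by voom, with 1027 genes at an unadjusted p under 0.05. *Twist2* ranged from -0.06 (without cKO CLH 2) to 0.09 (without cKO CLH 1), with -0.05 without Ctrl CLH 1. *Crabp1* ranged from -0.09 (without cKO CLH 2) to 0.14 (without cKO CLH 1), with -0.04 without Ctrl CLH 2.

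Between CLT and CLH in Ctrl, the 1 gene called became 2 with a pseudocount of 0.1, 0 with no filter and 0 with voom (1860 at an unadjusted p under 0.05 by limma and 1852 by voom), 837 with all 8 libraries in 1 fit, and from 0 to 7537 without 1 library. Among the 8 genes the count went from 0 to 7 without 1 library. *Prdm1* was 0.03 with median-of-ratios scaling, and from -0.45 (without Ctrl CLT 1) to 0.21 (without Ctrl CLT 2). In cKO, 10468 genes were called, and from 7660 to 11441 over the alternatives that kept all libraries.

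The interaction called 2494 genes and 4 of the 8, and with no filter 2 of the 8. Without 1 library it called from 198 to 8932 genes and from 0 to 8 of the 8, and *Prrx1* went from -1.26 (without Ctrl CLT 1) to 0.37 (without Ctrl CLT 2).

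The study names 2 litters, with controls from the same litters, but neither it nor the labels say which replicate number stands for which litter, so that a shared number is not known to be a shared litter. With the replicate number as a replicate block, 1744 genes and 4 of the 8 passed in CLT, 5 genes between regions in Ctrl, and 1448 genes and 2 of the 8 for the interaction. As a check of the block, the difference between replicates 1 and 2 was compared over 14148 genes, which are not independent. Within a region, r was -0.192 between Ctrl CLT and cKO CLT and 0.066 between Ctrl CLH and cKO CLH. Within a genotype, it was 0.195 between Ctrl CLH and Ctrl CLT and 0.307 between cKO CLH and cKO CLT. Across both, it was -0.136 between Ctrl CLH and cKO CLT and -0.113 between cKO CLH and Ctrl CLT.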
